A study of Mus musculus with 17 samples.

Results

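Lymphocyte-enriched miRNAs were followed in mouse serum: mmu-miR-150-5p, mmu-miR-342-3p, mmu-miR-181a-5p, mmu-miR-181b-5p and mmu-miR-181d-5p, written below without the mouse prefix. They were taken by name from a real-time PCR panel, which gave 5 of its 357 miRNA assays. Serum came from 17 mice. The groups were 7 Autotaxin-transgenic (AT-ATX) mice with spontaneous tumors, 7 AT-ATX mice without tumors and 3 healthy wild-type FVB/N mice. Autotaxin, released from cells, produces lysophosphatidic acid, a lipid signal. The labels give neither the promoter of the transgene nor the ages, and a question mark stands in the label of tumor replicate 5. Each label names 1 mouse.

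miRNAs are short RNAs that pair with messenger RNAs through their seed, the bases near the 5′ end, and lower the output of those messages. miR-150 is abundant in mature B and T lymphocytes and is known for repressing Myb, a transcription factor of lymphocyte progenitors. miR-342 is encoded in an intron of Evl and is found in blood cells, lymphocytes among them. The miR-181 family is high in thymocytes, where miR-181a raises the sensitivity of the T cell receptor, and it is also expressed in other tissues. Serum holds no cells, so these miRNAs mark possible sources of RNA and not a cell type. Fewer cells of a type and less RNA per cell cannot be told apart in it.

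The mature sequences show how closely the miR-181 assays resemble each other. RefSeq (GRCm38.p6) gave a mature sequence for 4 of the 5 miRNAs, and that of miR-181c-5p, the remaining family member, is added. They are written 5′ to 3′ with the seed, bases 2 to 8, in capitals.
miR-342-3p: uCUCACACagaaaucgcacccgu
miR-181a-5p: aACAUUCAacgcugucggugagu
miR-181b-5p: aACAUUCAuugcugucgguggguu
miR-181c-5p: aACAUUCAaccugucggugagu
miR-181d-5p: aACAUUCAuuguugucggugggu
The miR-181 sequences share 1 seed, and miR-342-3p has another. Counting from 1 at the 5′ end over 23 bases, miR-181b-5p differs from miR-181a-5p by A9U, C10U and A21G. miR-181d-5p differs from miR-181b-5p by C12U alone, and from miR-181a-5p by 4 bases. How far an assay reads the other family members was not tested.

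Each miR-181 RNA comes from a cluster of genes. Mir181a-1 (chr1:137966468-137966490) and Mir181b-1 (chr1:137966650-137966673) give miR-181a-5p and miR-181b-5p from the plus strand of chromosome 1. Mir181a-2 (chr2:38852741-38852763) and Mir181b-2 (chr2:38853845-38853868) give the same RNAs from the plus strand of chromosome 2, within the spans of Nr6a1 and its antisense gene Nr6a1os. Mir181c (chr8:84178924-84178945) and Mir181d (chr8:84178759-84178781) lie together on the minus strand of chromosome 8. Mir342 (chr12:108658680-108658702) lies on the plus strand within the span of Evl. These positions are those of the mature RNAs.

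All 5 miRNAs had a Ct, the cycle at which the product crosses a threshold, in 17 of 17 mice. A lower Ct means more template. The level used here is the mean Ct of 252 miRNA assays detected in all mice minus the miRNA's own Ct, on a log2 scale. By mean Ct among those 252 assays, miR-150-5p ranked 28, miR-342-3p 65, miR-181a-5p 103, miR-181b-5p 200 and miR-181d-5p 220. Their mean levels were 4.16, 1.95, 0.50, -2.53 and -3.39 in that order, with SDs over the 17 mice of 1.35, 0.73, 0.94, 0.84 and 0.82. The spreads of miR-181b-5p and miR-181d-5p overlapped, as did those of miR-342-3p and miR-181a-5p. Differences in efficiency between assays enter these ranks.

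The sera varied in amount of RNA and in red blood cell RNA. Between 312 and 356 assays were detected per mouse. Subtracting the Ct of miR-451a, a red blood cell miRNA, from the Ct of miR-23a-3p gives a hemolysis index, which was 3.97 ± 1.97 cycles in tumor mice, 4.38 ± 0.84 in tumor-free mice (SD, n = 7 each) and 5.61 ± 2.07 in wild-type mice (n = 3). Of 5 listed red blood cell miRNAs 4 were on the panel, and their mean level ranged from 6.38 to 9.63 in tumor mice, from 6.86 to 8.66 in tumor-free mice and from 7.55 to 9.77 in wild-type mice. None of the 4 was undetected in any mouse. The last decimals of the Ct values differ between 2 sets of assays in 13 mice and not in the other 4, tumor-free replicates 4, 5 and 7 and tumor replicate 1. The sources used here do not say what this marks.

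The first question was whether tumors go with a different level of these miRNAs among transgenic mice. None of the 5 passed in tumor against tumor-free mice, and the furthest apart was miR-181a-5p, lower in tumor mice by an amount that missed the threshold. Of all 338 assays tested, 1.48% passed an adjusted p of 0.05 in limma (Benjamini-Hochberg), 1 higher and 4 lower. At an unadjusted p under 0.05 the counts were 1 of the 5 miRNAs and 57 of 338, and an exact permutation test of each assay passed 0 after adjustment. None of the 5 had groups that did not overlap, against 1.18% of all assays.

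miR-150-5p had a level of 2.19, 3.74 and 6.96 (lowest, median, highest) in tumor mice, against 3.21, 4.28 and 6.97 in tumor-free mice. The groups overlapped almost throughout, each with 1 mouse near 7, tumor replicate 6 and tumor-free replicate 7. The means were 4.02 ± 1.54 in tumor mice, against 4.68 ± 1.31 in tumor-free mice (SD, n = 7 each), a log2 difference of -0.65 (SE 0.65, 95% interval -2.01 to 0.70, limma adjusted p = 0.688). Without the 4 mice of 1 decimal ending the difference was 0.18, so its direction rests on them.

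miR-342-3p had a level of 1.20, 2.07 and 3.76 in tumor mice, against 0.73, 1.86 and 2.22 in tumor-free mice. In tumor mice, 3 of 7 lay above every tumor-free mouse, and the others lay among them. The highest was tumor replicate 1, whose serum had the fewest assays detected (312) and the highest panel mean Ct (31.67). Its own Ct for miR-342-3p, 27.91, lay within the tumor-free range of 26.92 to 28.51. The means were 2.28 ± 0.89 in tumor mice, against 1.76 ± 0.49 in tumor-free mice. The difference was 0.52 (SE 0.41, interval -0.33 to 1.38, limma adjusted p = 0.558). Its other arm, miR-342-5p, was detected in 5 of 7 tumor mice, 5 of 7 tumor-free mice and 2 of 3 wild-type mice.

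miR-181a-5p had a level of -1.08, -0.10 and 1.49 in tumor mice, against 0.01, 1.25 and 2.47 in tumor-free mice. In 5 of 7 tumor mice it lay below every tumor-free mouse, while tumor replicate 6 lay above all tumor-free mice but 1. The means were -0.12 ± 0.87 in tumor mice, against 1.09 ± 0.83 in tumor-free mice (SD, n = 7 each). The difference of -1.21 (SE 0.44, interval -2.13 to -0.30) ranked 29 by p of 338 assays and had a limma adjusted p of 0.141. The exact permutation p for this miRNA alone was 0.0262, two-sided. Without the 4 mice of 1 decimal ending the difference was -1.20 (limma adjusted p = 0.536).

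miR-181b-5p, from the same clusters as miR-181a-5p, had a level of -3.51, -2.91 and -1.99 in tumor mice, against -3.35, -2.27 and -0.03 in tumor-free mice. Tumor-free replicate 6 stood well above all other mice, and the remaining ones overlapped. The means were -2.83 ± 0.57 in tumor mice, against -2.18 ± 1.10 in tumor-free mice. The difference was -0.65 (SE 0.45, interval -1.59 to 0.29, limma adjusted p = 0.481).

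miR-181d-5p had a level of -4.13, -3.08 and -2.22 in tumor mice, against -4.77, -4.01 and -2.54 in tumor-free mice. Most tumor mice lay in the upper part of the joint range, with 2 among the low tumor-free mice. The means were -3.14 ± 0.72 in tumor mice, against -3.85 ± 0.69 in tumor-free mice. The difference was 0.71 (SE 0.42, interval -0.18 to 1.59, limma adjusted p = 0.423). For miR-181c-5p, encoded beside it, the difference was 0.34 (limma adjusted p = 0.766). Across the 5 miRNAs 2 differences lay above 0 and 3 below, with a median of -0.65, against a median of 0.14 over all 338 assays.

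**Figure D1:**
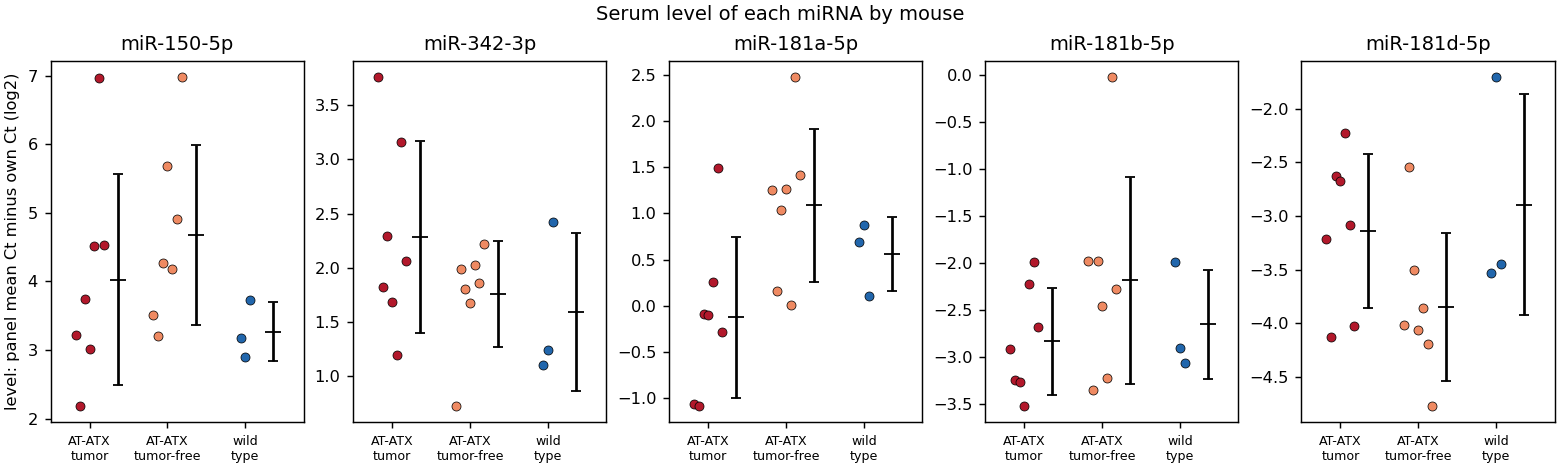
Level of each miRNA in each mouse (mean Ct of 252 assays minus own Ct, log2), one panel per miRNA with its own axis. Points are mice, and bars beside them give the mean and SD of 7 tumor, 7 tumor-free and 3 wild-type mice; in the miR-181a-5p panel 5 of 7 tumor mice lie below all tumor-free mice.

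The second question was whether the transgene without tumors goes with a different level. Of the 5 miRNAs, 0 passed in tumor-free against wild-type mice, against 0.592% of all assays, and 0 were under an unadjusted p of 0.05, against 76 of 338. None had groups that did not overlap, against 12.7% of all assays. The wild-type group holds 3 mice, and an exact p for 7 against 3 cannot lie below 0.00833. The median difference of the 5 was 0.47, against 0.03 over all assays. These same wild-type mice also serve the comparison with tumor mice.

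miR-150-5p averaged 4.68 ± 1.31 in tumor-free mice (SD, n = 7), against 3.17, 2.89 and 3.73 in the wild-type mice (mean 3.27 ± 0.43, n = 3). In 5 of 7 tumor-free mice it was higher than in every wild-type mouse, while 2 were within the wild-type range. The difference was 1.41 (SE 0.84, interval -0.34 to 3.16, limma adjusted p = 0.322). miR-181d-5p averaged -3.85 ± 0.69 in tumor-free mice, against -3.53, -1.71 and -3.45 in the wild-type mice (mean -2.90 ± 1.03). It lay below all wild-type mice in 5 of 7 tumor-free mice, a difference of -0.95 (SE 0.55, interval -2.09 to 0.19, limma adjusted p = 0.302). Wild-type replicate 2 was far higher than the other wild-type mice, and without it the difference was -0.36. This mouse also had the highest hemolysis index of all mice, 7.82 cycles, and whether that bears on its level was not tested.

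The other 3 miRNAs overlapped more. miR-342-3p averaged 1.76 ± 0.49 in tumor-free mice, against 1.10, 1.25 and 2.43 in the wild-type mice, a difference of 0.17 (interval -0.93 to 1.27, limma adjusted p = 0.861). miR-181a-5p averaged 1.09 ± 0.83 in tumor-free mice, against 0.70, 0.88 and 0.11 in the wild-type mice, a difference of 0.53 (interval -0.65 to 1.71, limma adjusted p = 0.589). miR-181b-5p averaged -2.18 ± 1.10 in tumor-free mice, against -1.99, -2.90 and -3.06 in the wild-type mice, a difference of 0.47 (interval -0.75 to 1.69, limma adjusted p = 0.647). On raw Ct these last 3 differences lay below 0 (-0.85, -0.49 and -0.55), where the median of all assays was -1.07.

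The third comparison set tumor mice against wild-type mice. Here 8.28% of all assays passed, 14 higher and 14 lower, and 0 of the 5 miRNAs did, with 0 under an unadjusted p of 0.05, against 85 of 338. None had groups that did not overlap, against 9.17% of all assays. The log2 difference was 0.76 for miR-150-5p (interval -0.996 to 2.51, limma adjusted p = 0.639) and 0.69 for miR-342-3p (interval -0.41 to 1.79, limma adjusted p = 0.439). It was -0.68 for miR-181a-5p (interval -1.87 to 0.50, limma adjusted p = 0.482), -0.18 for miR-181b-5p (interval -1.40 to 1.04, limma adjusted p = 0.888) and -0.25 for miR-181d-5p (interval -1.39 to 0.89, limma adjusted p = 0.825). A miss of the threshold does not show equal levels, and the interval of miR-150-5p was the widest of the 5. The median difference of the 5 was -0.18, against 0.19 over all assays.

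**Figure D2:**
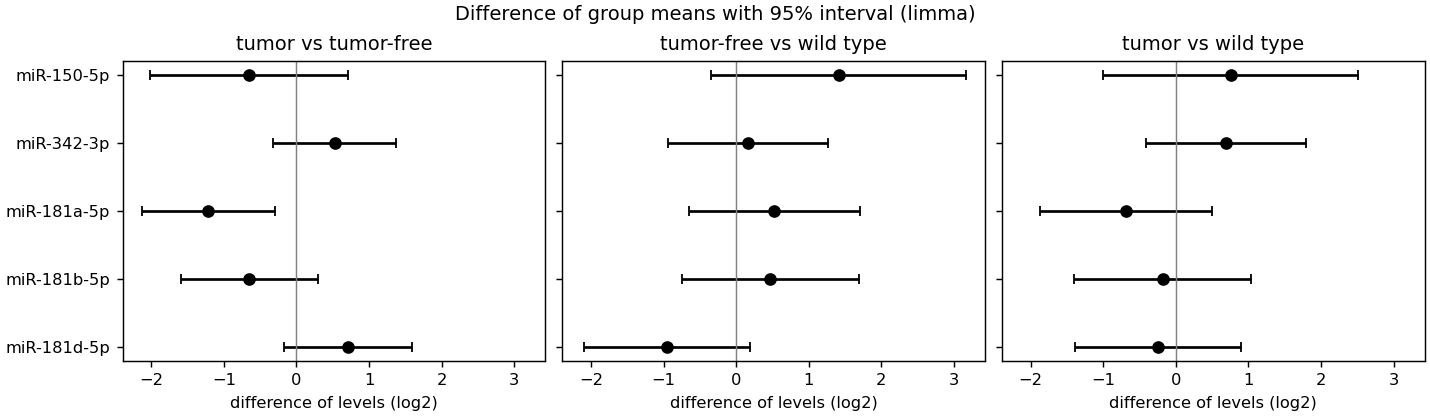
Log2 difference of group means with its 95% interval from limma, for each miRNA (rows) in the 3 comparisons (panels); a value above 0 means higher in the first-named group. Only the interval of miR-181a-5p in tumor against tumor-free mice, -2.13 to -0.30, leaves out 0, before adjustment over 338 assays.

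Some other white blood cell miRNAs passed in tumor against wild-type mice. Of 8 assays for miR-142, miR-146a, miR-146b, miR-155 and miR-223, 0 passed in tumor against tumor-free mice, 0 in tumor-free against wild-type mice and 3 in tumor against wild-type mice. Over all 338 assays the shares that passed were 1.48%, 0.592% and 8.28% in that order. At an unadjusted p under 0.05 the counts were 0, 4 and 3 of the 8, against 57, 76 and 85 of 338. Among the 8, miR-146b-5p and miR-223-3p each had a mouse-named and a rat-named assay. miR-146a-5p, a damper of inflammatory signaling, was higher in tumor mice by 2.22 (limma adjusted p = 0.0419). miR-223-3p, abundant in neutrophils, was higher by 1.96 (limma adjusted p = 0.0333), while its rat-named assay gave 1.02 (limma adjusted p = 0.259). miR-142-3p, found across blood cells, was lower by 3.91 (limma adjusted p = 0.0467). Its other arm, miR-142-5p, went the other way, with a difference of 0.86 (limma adjusted p = 0.405). Among the 8 assays 7 differences lay above 0 in this comparison, and 1, that of miR-142-3p, lay below. These 3 calls held in 8, 7 and 8 of 15 alternative settings in that order, and in 4, 12 and 4 of 17 fits that each left out 1 mouse. Exact permutation is 1 of these 15. With 7 against 3 mice its p cannot lie below 0.00833, so it could hardly pass any of 338 assays. Each of the 3 was lost without wild-type replicate 2 or 3 and without tumor replicate 1 or 2, with limma adjusted p up to 0.171 for miR-146a-5p, 0.154 for miR-223-3p and 0.240 for miR-142-3p. On raw Ct the differences were 0.84, 0.58 and -5.29 in that order. In tumor-free against wild-type mice these 3 assays differed by 2.32, 1.28 and -2.56 (limma adjusted p = 0.0899, 0.187 and 0.202). In tumor against tumor-free mice they differed by -0.11, 0.68 and -1.34. Groups did not overlap for 3 of the 8 assays in tumor-free against wild-type mice, against 12.7% of all assays. In tumor against wild-type mice this held for 1 of the 8, against 9.17%, and in tumor against tumor-free mice for 0, against 1.18%.

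Scaling between sera does not enter the difference between 2 miRNAs of the same serum, so all 10 pairs were also compared that way. Of 30 exact permutation tests, 0 passed after adjustment. The level of miR-181a-5p minus that of miR-181d-5p was 2.16, 2.58 and 4.57 (lowest, median, highest) in tumor mice, against 2.70, 5.27 and 6.67 in tumor-free mice. In 4 of 7 tumor mice it lay below every tumor-free mouse. The means were 3.02 ± 0.86 in tumor mice, against 4.94 ± 1.36 in tumor-free mice (SD, n = 7 each). They differed by -1.92 (exact permutation p = 0.0105, adjusted over 30 tests p = 0.175), and by -1.63 without the 4 mice of 1 decimal ending (adjusted exact p = 0.536). With 6 against 4 mice an exact test could hardly pass after adjustment over 30 tests.

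The level of miR-342-3p minus that of miR-181a-5p was 0.94, 2.35 and 4.82 in tumor mice, against -0.61, 0.76 and 2.02 in tumor-free mice. Again 4 of 7 tumor mice lay beyond every tumor-free mouse, here above them. The difference of means was 1.74 (exact permutation p = 0.0117, adjusted p = 0.175), and 1.64 without the 4 mice of 1 decimal ending. The highest value, 4.82, was that of tumor replicate 1, and without this mouse the difference was 1.33. Both of these pairs contain miR-181a-5p, so they are not independent. miR-181a-5p minus miR-181b-5p was 2.71 ± 0.64 in tumor mice, against 3.27 ± 0.42 in tumor-free mice, the narrowest spread of the pairs shown. miR-181a-5p minus miR-181c-5p was 1.84 ± 0.80 in tumor mice, against 3.39 ± 0.95 in tumor-free mice, given without a test.

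**Figure D3:**
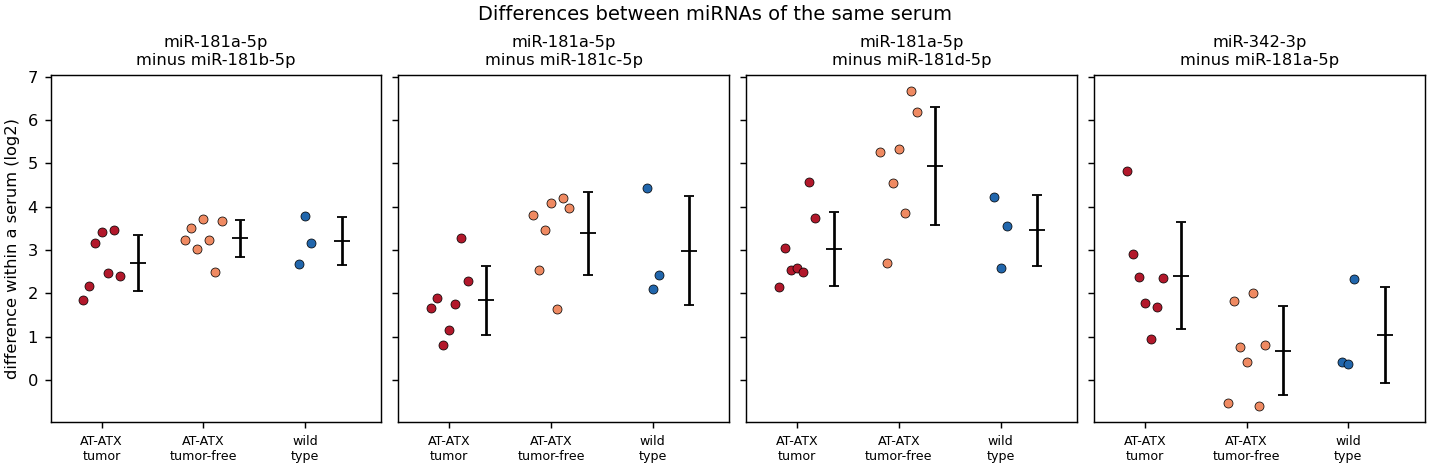
Difference of levels (log2) between miRNAs of the same serum, by mouse, with mean and SD beside each group. For miR-181a-5p minus miR-181d-5p, 4 of 7 tumor mice lie below all tumor-free mice, and for miR-342-3p minus miR-181a-5p 4 of 7 lie above them.

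Pairs of the 5 miRNAs varied together to different extents. Over 17 mice with group means taken off, miR-181a-5p and miR-181b-5p went together, with Pearson's r = 0.78 (permutation p = 0.00044, adjusted over 10 pairs p = 0.0044) and Spearman's rho = 0.66 (permutation p = 0.00919, adjusted p = 0.076). Without the 2 mice farthest from the median, r was 0.69, and without the 4 mice of 1 decimal ending it was 0.82 (adjusted permutation p = 0.0207). On raw Ct, which also carries the total amount of RNA in each serum, r was 0.94. For miR-150-5p and miR-181a-5p, r was 0.66 (adjusted permutation p = 0.0651) and rho 0.64 (adjusted permutation p = 0.076) over 17 mice, and r was 0.50 without the 2 farthest. Without the 4 mice of 1 decimal ending r was 0.79 (adjusted permutation p = 0.0207) and rho 0.52 (unadjusted permutation p = 0.104). For miR-150-5p and miR-181b-5p r was 0.40 over 17 mice (adjusted permutation p = 0.446) and 0.63 without those 4 (adjusted permutation p = 0.0207). miR-181d-5p had r = 0.01 with miR-181a-5p and r = -0.25 with miR-181b-5p on the panel-mean scale. On raw Ct these were 0.74 (adjusted permutation p = 0.00446) and 0.65 (adjusted permutation p = 0.016). High r on raw Ct was not limited to the miR-181 family. There miR-150-5p had r = 0.84 with miR-342-3p, 0.85 with miR-181a-5p, 0.75 with miR-181b-5p and 0.48 with miR-181d-5p. For miR-342-3p r on raw Ct was 0.76 with miR-181a-5p, 0.77 with miR-181b-5p and 0.47 with miR-181d-5p.

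The assays most like each miRNA in level over the 17 mice, of 251 others, were different for most of the 5. All share the panel mean, group means were kept in, and r is given as a description. miR-150-5p was closest to miR-146a-5p (r = 0.78), then to miR-33-5p (0.75) and miR-219a-5p (0.74). miR-342-3p was closest to the rat-named assay of miR-223-3p (0.79), then to miR-138-5p (0.72) and miR-758-3p (0.70). For miR-181a-5p the closest were miR-181b-5p (0.79), miR-26a-5p (0.65) and miR-150-5p (0.61). After miR-181a-5p, miR-181b-5p was closest to miR-28a-5p (0.62) and miR-199b-5p (0.59). miR-181d-5p was closest to miR-328-3p (0.83), miR-20a-5p (0.82) and miR-25-3p (0.80). With group means taken off, the closest became miR-139-5p for miR-342-3p (0.76) and miR-103-3p for miR-181d-5p (0.82), and it was the same assay for the other 3.

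miR-181d-5p was the only one of the 5 whose relation to the hemolysis index passed over 17 mice on the panel-mean scale; differences between the 5 in this relation were not tested. Over 17 mice with group means taken off, its level went up with the hemolysis index, with r = 0.74 (permutation p = 0.00207, adjusted over 5 miRNAs p = 0.0103) and rho = 0.71 (permutation p = 0.00614, adjusted p = 0.0307). Without the 2 mice farthest from the median index r was 0.70, and it was 0.76 within tumor mice and 0.64 within tumor-free mice. Without the 4 mice of 1 decimal ending it was 0.82 (adjusted permutation p = 0.0161). With the level of miR-451a as the index r was 0.72 (adjusted permutation p = 0.0121). On raw Ct it was 0.32 (adjusted permutation p = 0.489), so the relation was seen in the level relative to the panel. Whether red blood cells supply this RNA was not tested.

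For miR-181b-5p r was -0.44 (adjusted permutation p = 0.0726), and for miR-150-5p, miR-342-3p and miR-181a-5p it was -0.24, -0.32 and -0.02. Within tumor-free mice r with the index was -0.88 for miR-181a-5p, -0.75 for miR-181b-5p, -0.67 for miR-150-5p and 0.01 for miR-342-3p. Within tumor mice it was 0.26, -0.37, -0.11 and -0.48 in that order. These contrasts were not tested. With the index as a covariate, the tumor against tumor-free difference was -1.22 for miR-181a-5p (limma adjusted p = 0.0642) and 0.85 for miR-181d-5p (limma adjusted p = 0.0746).

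**Figure D4:**
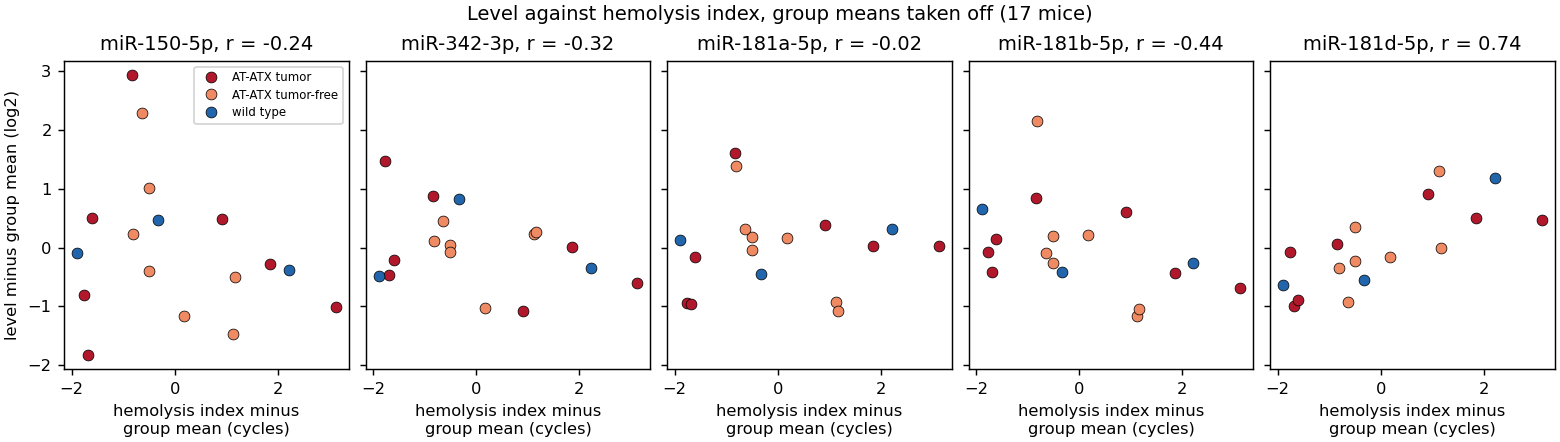
Level of each miRNA (log2) against the hemolysis index (cycles), both minus their group mean, for 7 tumor, 7 tumor-free and 3 wild-type mice. Over all mice points rise from left to right for miR-181d-5p (r = 0.74) and spread without such a trend for miR-181a-5p (r = -0.02). Within tumor-free mice alone, r for miR-181a-5p was -0.88.

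The direction of several differences depended on how sera were set on a common scale. In tumor against tumor-free mice each of the 5 miRNAs kept its direction under all 7 scalings drawn. Against wild-type mice, raw Ct and spike-ins moved every miRNA down relative to scaling on the panel mean, and the median of all assays moved with them, to -1.22 on raw Ct and -1.08 on spike-ins in tumor against wild-type mice. miR-150-5p and miR-342-3p were higher in tumor than in wild-type mice on the panel mean and lower on raw Ct (-0.62 and -0.69), without passing on either.

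**Figure D5:**
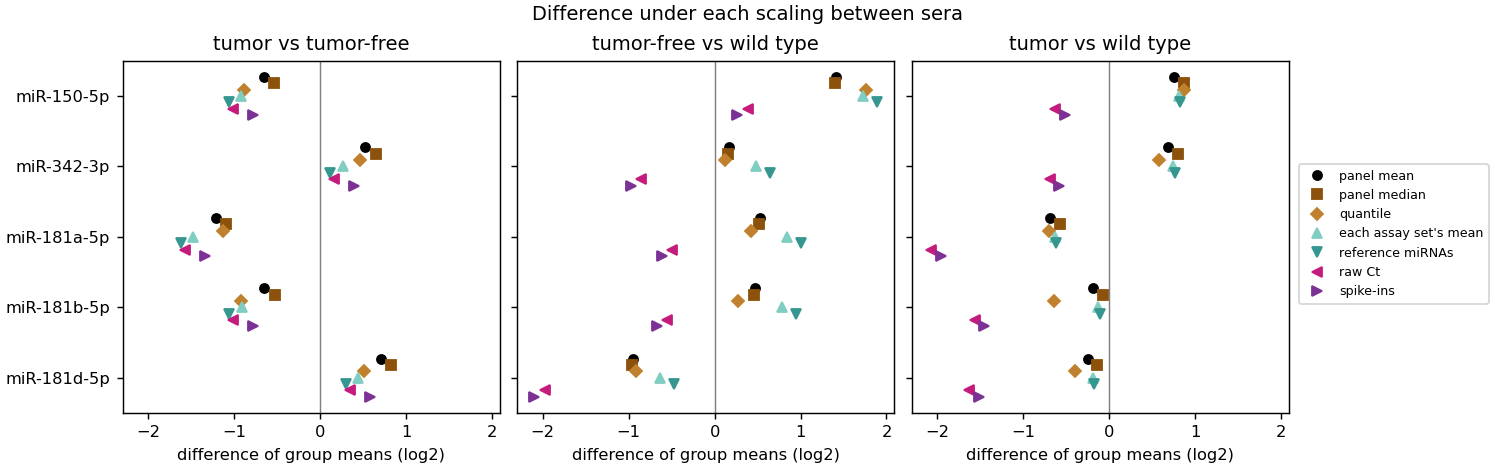
Log2 difference of group means for each miRNA (rows) in the 3 comparisons (panels) under 7 ways of scaling between sera; a value above 0 means higher in the first-named group. In tumor against tumor-free mice no miRNA crosses 0, and in both comparisons with wild-type mice raw Ct and spike-ins lie left of the other scalings.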

How the data were processed

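The deposited Ct values, a score per assay and mouse, are raw cycles from the authors' SYBR Green PCR: per the labels' protocols, RNA from 50 µL of serum was run for 40 cycles on 2 panel plates. Threshold setting and calibration between plates are not given in the sources used here. Empty cells were taken as not detected. No technical repeats were given, so technical and biological variation cannot be told apart in the spread between mice, on which the p-values rest.

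Levels were the mean Ct of 252 shared assays minus own Ct, relative to the panel and not to serum volume. Tested assays, 338 of 357, had a Ct in 5 or more tumor, 5 or more tumor-free and 2 or more wild-type mice. limma 3.58.1 (R 4.3.3) fitted all 3 groups at once, two-sided, with Benjamini-Hochberg adjustment within each comparison and a threshold of 0.05. Pairs were compared by exact permutation of mice, two-sided; relations used 100000 reorderings within groups (Python 3.11.15, numpy 2.4.6, pandas 2.3.3, scipy 1.17.1). Scripts were tested on simulated data. Alternatives changed scaling, filter, missing values, variance model, covariates and mice.

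The miRNAs named were the 5, every assay of their families, a list of white blood cell miRNAs, and the 3 assays most like each. Members and lists were chosen with earlier results of these data known.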

Additional observations from a re-analysis of the deposited data

Results flagged for a closer look

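A sample far from the rest of its group was looked for in 10 groups, the 5 miRNAs in tumor and in tumor-free mice, by Dixon's gap test. Chance marks about 1 in 20 such groups, and 2 of 10 were marked. miR-342-3p was low in tumor-free replicate 1, with a level of 0.73, a gap of 0.637 of the group's range. miR-181b-5p was high in tumor-free replicate 6, with a level of -0.028, a gap of 0.586 of the range.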

How the results depend on the processing

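None of the 5 miRNAs passed in any comparison under 15 alternatives or in 17 fits without 1 mouse; the lowest adjusted p was 0.0592, for miR-181a-5p in tumor against tumor-free mice. No pair passed in any of its alternatives. miR-181a-5p stayed lower in tumor than in tumor-free mice throughout, with differences of -1.62 to -1.09 under alternatives and -1.48 to -0.98 without 1 mouse. Without the 4 mice of 1 decimal ending, miR-150-5p in tumor against tumor-free mice reversed to 0.18. For tumor-free against wild-type mice, raw Ct gave -0.85 for miR-342-3p, -0.49 for miR-181a-5p and -0.55 for miR-181b-5p, and spike-ins -0.98, -0.62 and -0.68; for miR-342-3p the hemolysis covariate gave -0.0084 and decimal endings as a block -0.19. For tumor against wild-type mice, raw Ct gave -0.62 for miR-150-5p and -0.69 for miR-342-3p, spike-ins -0.51 and -0.58, and the hemolysis covariate 0.33 for miR-181d-5p. Leaving out 1 mouse gave -0.077 to 0.58 for miR-342-3p in tumor-free against wild-type mice (below 0 without wild-type replicate 1 or 2), -0.39 to 0.15 for miR-181b-5p (above 0 without wild-type replicate 1) and -0.56 to 0.35 for miR-181d-5p (above 0 without wild-type replicate 2) in tumor against wild-type mice. The number of miRNAs related to the hemolysis index was 0 on raw Ct and on spike-ins, 2 with miR-451a as the index, and 1 to 2 without 1 mouse (2 without tumor replicate 2 or 5, adding miR-181b-5p); r of miR-181a-5p with it was -0.15 to 0.081. The cause of these shifts was not tested. Calls over all assays ranged from 0 to 13 in tumor against tumor-free mice. Against wild-type mice they ranged from 0 to 5 for tumor-free mice and from 0 to 33 for tumor mice. Exact permutation gave 0 in each comparison. For 7 against 3 mice its p cannot lie below 0.00833. An assay at that floor, miR-146a-5p in tumor-free against wild-type mice, had an adjusted exact p of 0.0828. In the comparisons with wild-type mice this alternative could therefore hardly pass any assay, and its 0 carries little weight. The calls of miR-146a-5p, miR-223-3p and miR-142-3p were run through the same alternatives after they had passed, and the relations without the 4 mice of 1 decimal ending and the raw Ct correlation were also added after seeing the data. The labels of transgenic mice hold a number of unstated meaning, and 77 and 85 occur in both transgenic groups. Numbers also repeat within groups, 85 and 87 among tumor-free mice and 77 among tumor mice. For 85, a tumor and a tumor-free label differ by a letter apart from the group name. With the label number as a random block, 0 of the 5 miRNAs passed in each comparison. There miR-181a-5p differed by -1.18 in tumor against tumor-free mice (limma adjusted p = 0.152). The other tests treated all mice as independent. The number of mice, 3 of them wild type, limits precision.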
